A study of Mus musculus with 54 samples.

Results

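The integrins and laminins are the 37 genes of the count table whose symbols name an integrin alpha chain, an integrin beta chain or a laminin chain, out of 35976 gene rows in all. They were found by symbol alone, and comprise 18 integrin alpha chains, 8 integrin beta chains and 11 laminin chains. An integrin is a pair of 1 alpha and 1 beta chain in the cell membrane that binds proteins outside the cell and holds them to the cytoskeleton inside it. Laminins are trimers of an alpha, a beta and a gamma chain, and they are the main adhesive proteins of the basement membrane on which epithelial cells, Schwann cells and blood vessels rest. In the cornea, the integrin of the Itga6 and Itgb4 chains anchors basal epithelial cells at hemidesmosomes, and in the peripheral nerve integrins and laminins join the Schwann cell to its basement membrane.

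RNA was read in the trigeminal ganglion (TG), which holds the cell bodies of the corneal sensory nerves, in the cornea, and in sorted Csf1r-EGFP+ cells of young adult male mice of 8 to 12 weeks. The microRNAs miR-183, miR-96 and miR-182 (miR-183C) had been removed from nociceptive sensory neurons (SNS-CKO), from myeloid cells (MS-CKO) or from every cell (KO). In SNS-CKO mice, Cre under the Nav1.8 (Scn10a) promoter acts on floxed miR-183C alleles (miR-183C f/f). Their WT controls carry the same Nav1.8-Cre with unfloxed miR-183C (miR-183C +/+), and both carry R26 LSL-RFP(+/+). MS-CKO mice carry LysM-Cre(+/-) with miR-183C f/f, and their WT controls are LysM-Cre(-/-) with miR-183C f/f. LysM-Cre is inserted in Lyz2 and disrupts that copy of the gene. KO mice are homozygous for a gene-trap allele (miR-183C GT/GT) on a mixed 129S2/C57BL/6 background, and their WT controls are miR-183C +/+. All of these mice carry Csf1r-EGFP, which marks monocytes, macrophages and dendritic cells.

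In each of the TG and the cornea, 3 SNS-CKO mice stood against 4 WT mice of their strain and 5 MS-CKO mice against 5 WT mice of theirs, with 1 mouse per library by the titles. From sorted cells of corneas, called corneal resident myeloid cells (CRMCs), and of spleens there was 1 pooled library each for KO mice, MS-CKO mice and the WT mice of both strains. The strain names of the TG and cornea libraries are a reading of the column names. The other reading takes all libraries without B2 in the column name as the SNS strain and all with it as the MS strain. In addition, 11 columns named for the KO strain are copies of MS-strain libraries, and the names of 2 of them go against their values. A column named as a KO TG equals cornea MS-strain WT library 4, and a column named as a KO-strain WT TG equals MS-CKO TG library 3. These 11 columns were left out, and the MS-strain results share the doubt on which strain and genotype their libraries hold.

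Library totals were 2366126 to 6741290 counts in the cornea, 2934793 to 5387042 in the TG, 2261266 to 10803867 in CRMC pools and 5140261 to 9790238 in spleen pools. The libraries held 15047 to 16748 detected genes in the cornea and 16691 to 18541 in the TG, against only 1650 to 6455 in CRMC pools and 7323 to 10559 in spleen pools. Levels are given in CPM, the count of a gene scaled to the total of its library. The reads come from the 3′ end of each transcript, so CPM has no length term. Krt12, the keratin of corneal epithelium, lay at 20219 to 38157 CPM in the cornea, and Scn10a at 0 to 0.67 CPM in the cornea and 255 to 407 CPM in the TG. In the TG, Krt12 was at 0 to 0.90 CPM in the libraries without B2 in the column name and at 15.3 to 25.1 CPM in those with it (B2 libraries). All SNS-strain libraries have the B2 name, and in each tissue 7 MS-strain libraries lack it and 3 have it. No member separated the B2 libraries from the others in either tissue. The miR-183C host transcript Mirc35hg was at 49.3 to 52.6 CPM in SNS-CKO TG against 0.26 to 3.56 CPM in their WT controls, and at 4.02 to 12.0 CPM in MS-CKO mice against 1.20 to 3.90 CPM in theirs. The sources used here do not say whether its reads lie in the deleted part.

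The 3 microRNAs act by pairing of their seed with the 3′ UTR of a messenger RNA, which lowers its level or its translation. Their mature sequences, from RefSeq (GRCm38.p6), are shown because the seeds decide which members could be direct targets. Capitals mark the seed, bases 2 to 8 from the 5′ end.
miR-183-5p: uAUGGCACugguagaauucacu
miR-96-5p: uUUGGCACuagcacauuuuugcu
miR-182-5p: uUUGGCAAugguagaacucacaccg
All lie on the minus strand of mouse chromosome 6, and the seed of miR-96-5p differs from that of miR-182-5p only in its last base.

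Annotated 3′ UTRs (GENCODE M21 on mm10) were searched on the transcript strand for the matches to the seeds, which are GTGCCAT for miR-183-5p, GTGCCAA for miR-96-5p and TTGCCAA for miR-182-5p, called an 8mer where an A follows and a 7mer-m8 otherwise. The 3 motifs have the same length and cannot start at the same base. A match was found in 7 of 37 members (18.9%), namely Itga1, Itga2, Itga3, Itga11, Itgb1, Itgb8 and Lamc1, and in 4888 of 19983 genes with a 3′ UTR (24.5%). The longest 3′ UTR had a median of 1112 bases in members and 984 bases in all genes. The sites of the members with an 8mer, and of Itgb1, are shown because the change of these genes in CKO mice is described further on. Capitals mark the match.
Itga3, miR-96-5p 8mer, chr11:95045309-95045338 (minus strand): agtctctgtctGTGCCAAAaccaagccaaa
Lamc1, miR-96-5p 8mer, chr1:153220989-153221018 (minus strand): ataaacatcctGTGCCAAAggtattggtca
Itga11, miR-96-5p 8mer, chr9:62783266-62783295 (plus strand): atccagggactGTGCCAAAtgaactggagg
Itgb1, miR-183-5p 7mer-m8, chr8:128732663-128732691 (plus strand): ttaaaacctgtGTGCCATtgtgagttact
Itgb1, miR-96-5p 7mer-m8, chr8:128732377-128732405 (plus strand): tgacactgctaGTGCCAAtgcagggcaga
A match is a description of the sequence and does not show that the microRNA acts there. Itga2 has a 7mer-m8 of miR-96-5p, Itga1 one of miR-182-5p, and Itgb8 one each of miR-182-5p and miR-183-5p.

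Of the 37 members, 20 reached a mean of 2 CPM in the cornea and 23 in the TG of WT mice, 18 in CRMC pools and 15 in spleen pools. A mean of 20 CPM was reached by 15 members in the cornea, 12 in the TG, 14 in CRMC pools and 9 in spleen pools. Itga5, Itgae (the alpha chain of epithelium-homing T cells) and Lama1 (a laminin chain of the embryo) stayed under 2 CPM in every set. The summed level of all 37 members was 1941 to 2114 CPM (median 2073) in the cornea and 964 to 1212.5 CPM (median 1116) in the TG of WT mice. The cornea and the TG did not overlap in this sum, in the sum of integrin chains (1539 to 1676 CPM in the cornea, 669 to 800 CPM in the TG) or in the sum of Lama3 and Lamb3 (107 to 162 CPM in the cornea, 0.28 to 3.62 CPM in the TG). The sum of Lama2 and Lama4 lay the other way, at 2.49 to 10.99 CPM in the cornea against 62.4 to 114 CPM in the TG. Levels of both tissues were taken from 9 WT libraries each, 4 of the SNS strain and 5 of the MS strain.

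The comparison of cornea with TG asks which chains are read in the tissue that carries the nerve endings and which in the ganglion that holds their cell bodies. In edgeR's quasi-likelihood test with strain as a covariate and Benjamini-Hochberg adjustment over all genes, 15 members were higher and 13 lower in the cornea. All 28 members that passed the filter on low counts were called, where 84.3% of all genes tested were called (39.9% higher and 44.3% lower), so the call by itself says little of the members. Members near the floor in 1 tissue, such as Lamb3 in the TG and Lama4 and Itgb3 in the cornea, passed the filter through the other tissue. Nothing is read from the split of the calls or from the p-values of such members, whose levels are given as a description. The other 9, Itga5, Itga8, Itga10, Itgad, Itgae, Itgal, Itgax, Itgb2 and Lama1, were too low to be tested. The levels of 13 members were higher in every cornea WT library than in every TG WT library and those of 10 were lower, where 57.3% of all genes tested did not overlap. Over all 17 libraries of each tissue, CKO included, 13 members were higher and 8 lower without overlap, and 16 of 37 overlapped. No share over all genes stands beside this last count, so nothing is read from it. The median log2 change was 0.82 over the members tested and -0.09 over all genes. In these whole tissues fewer cells of a type and less RNA per cell cannot be told apart.

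**Figure D1:**
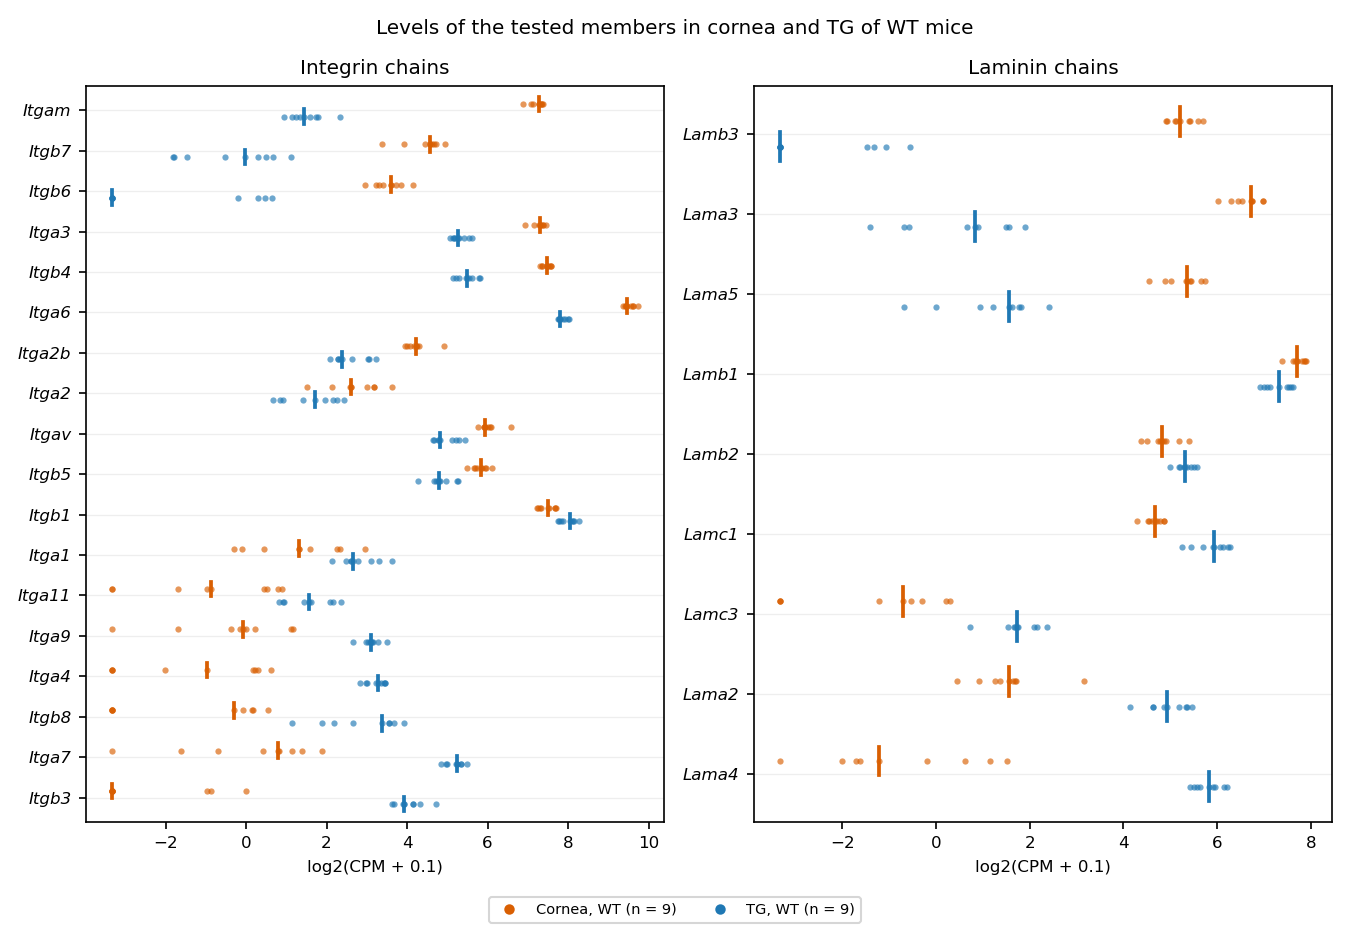
Each point is 1 WT library of a tested member reported here, with log2 of CPM plus 0.1 on the x axis, cornea (orange, n = 9) above TG (blue, n = 9), and a short line at the median; integrin chains are on the left and laminin chains on the right, from the highest to the lowest change. Lamb3, Lama3 and Itgam lie far to the right in the cornea, Lama4, Itgb3 and Itga7 in the TG, and Lamb1, Lamb2, Itga1, Itga2 and Itga11 overlap.

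The laminin chains divided between the tissues. Lama3 and Lamb3 are chains of the laminin of epithelial basement membranes to which hemidesmosomes attach. Lamb3 (chr1:193207699-193343878, plus strand) had 29.9, 36.99 and 51.6 CPM as lowest, median and highest value in the cornea, against 0, 0 and 0.584 CPM in the TG. It was at 0 in most TG libraries, with 6 counts over all 9. The log2 change was 7.75 (SE 0.28, edgeR adjusted p = 4.9e-20), and the ratio of summed CPM was 234, with a 95% exact binomial interval of 107 to 638 that covers counting error only. Lama3 (chr18:12333819-12583013, plus strand) had 64.6, 105 and 125.5 CPM in the cornea, against 0.28, 1.67 and 3.62 CPM in the TG (log2 change 5.97, SE 0.20, adjusted p = 3.4e-21). Every cornea library was above every TG library for both chains. Lama5, the alpha chain of laminins under most adult epithelia and vessels, was also higher in the cornea, with 23.1 to 53.7 CPM against 0.52 to 5.26 CPM in the TG (log2 change 4.02, SE 0.22).

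The chains of nerve, muscle and vessel laminins were lower in the cornea. Lama4 (chr10:38965515-39110188, plus strand), the alpha chain of vascular and peripheral nerve basement membranes, had 0, 0.334 and 2.75 CPM in the cornea, against 42.7, 56.8 and 73.9 CPM in the TG. No cornea library came near the TG, and the log2 change was -6.00 (SE 0.28, adjusted p = 1.6e-17). Lama2, the alpha chain of Schwann cell and muscle laminin, ranged over 1.27 to 8.88 CPM in the cornea and 17.4 to 44.0 CPM in the TG (log2 change -3.24, SE 0.21). Lamc3, a minor gamma chain, averaged 0.483 CPM in the cornea and 3.40 CPM in the TG (log2 change -2.59, SE 0.45).

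The chains that many trimers share differed less. Lamc1, the most common gamma chain and a member with a miR-96-5p site, had 19.5, 25.4 and 29.2 CPM in the cornea, against 38.0, 60.8 and 77.3 CPM in the TG (log2 change -1.10, SE 0.12, adjusted p = 1.3e-09), without overlap. Lamb1, a beta chain of embryonic and many adult laminins, was the laminin chain of highest CPM in both tissues, with 212 ± 22.7 CPM in the cornea and 159 ± 29.6 CPM in the TG (mean ± SD, n = 9 each). Its libraries overlapped (log2 change 0.56, SE 0.09, adjusted p = 1.3e-06). Lamb2, the beta chain of the neuromuscular synapse and the kidney filter, overlapped too, with 20.7 to 42.1 CPM in the cornea and 31.8 to 47.3 CPM in the TG (log2 change -0.32, SE 0.11, adjusted p = 0.0102).

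Among the laminin-binding integrins, Itga6, Itgb4 and Itga3 were higher in the cornea and Itga7 was lower. Itga6 pairs with Itgb4 in hemidesmosomes and with Itgb1 elsewhere, and was the member of highest CPM in the cornea, with 734 ± 62.9 CPM in the cornea and 232 ± 17.3 CPM in the TG (log2 change 1.79, SE 0.07). Itgb4 ranged over 158 to 190.5 CPM in the cornea and 35.1 to 55.9 CPM in the TG (log2 change 2.09, SE 0.09). Itga3 (chr11:95044474-95076801, minus strand), whose pair with Itgb1 binds the laminin of Lama3, had 121, 159 and 174 CPM in the cornea, against 33.2, 38.4 and 48.6 CPM in the TG (log2 change 2.11, SE 0.09, adjusted p = 6.1e-19). Neither tissue overlapped the other for these chains. Itga7 (chr10:128933818-128958282, plus strand), the laminin receptor of muscle and Schwann cells, had 0, 1.63 and 3.57 CPM in the cornea, against 28.8, 37.6 and 45.1 CPM in the TG (log2 change -4.54, SE 0.26, adjusted p = 1.9e-15). Itgb1 (chr8:128685654-128733200, plus strand), the beta chain with the most partners, was closer to even, with 149, 181 and 208 CPM in the cornea against 217, 266 and 307 CPM in the TG (log2 change -0.40, SE 0.06, adjusted p = 2.3e-06), still without overlap.

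The collagen-binding alpha chains were low in both tissues. Itga2, a receptor of collagen and laminin, ranged over 2.75 to 12.3 CPM in the cornea and 1.5 to 5.32 CPM in the TG (log2 change 1.19, SE 0.29). Itga1, its neighbour 21 kb away on chromosome 13, moved the other way, with 3.08 CPM in the cornea and 7.23 CPM in the TG (log2 change -1.22, SE 0.27). Itga11, a fibroblast receptor of fibrillar collagen, averaged 0.785 CPM in the cornea and 3.03 CPM in the TG (log2 change -1.62, SE 0.45). All of these overlapped between the tissues, although each passed the test. On the genome, Itga1 overlaps Pelo and Gm49395 on the same strand, and whether reads of these genes were counted apart is not known here.

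The integrins that bind the RGD motif of fibronectin, vitronectin and latent TGF-beta divided by their beta chain. Itgb6, the beta chain of epithelial cells that activates latent TGF-beta, ranged over 7.63 to 17.5 CPM in the cornea and 0 to 1.46 CPM in the TG (log2 change 4.70, SE 0.40). Itgb3 (chr11:104608000-104670476, plus strand), the beta chain of platelets, osteoclasts and growing vessels, had 0, 0 and 0.90 CPM in the cornea, against 12.3, 15.1 and 26.1 CPM in the TG (log2 change -5.92, SE 0.38, adjusted p = 3.2e-14). Itgb8 (chr12:119158022-119238802, minus strand), a beta chain of glia and other cells that also activates latent TGF-beta, had 0, 0.714 and 1.35 CPM in the cornea, against 2.10, 10.2 and 15.1 CPM in the TG (log2 change -4.06, SE 0.45, adjusted p = 2.7e-09). Both were lower in every cornea library. The median of Itgb8 over all TG libraries was 12.2 CPM in B2 libraries and 3.60 CPM in the others, whose ranges overlapped. The alpha chain that pairs with all of these, Itgav, ranged over 54.4 to 95.7 CPM in the cornea and 24.9 to 42.9 CPM in the TG (log2 change 1.17, SE 0.12), and Itgb5, a widely used partner, over 44.8 to 68.4 CPM in the cornea and 19.3 to 38.4 CPM in the TG (log2 change 1.07, SE 0.11).

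Of the leukocyte and platelet chains, Itgam, Itgb7 and Itga2b were higher in the cornea and Itga4 and Itga9 lower. Itgam (chr7:128062640-128118491, plus strand), the CD11b chain of macrophages and neutrophils, had 119, 156 and 167.5 CPM in the cornea, against 1.81, 2.60 and 4.92 CPM in the TG (log2 change 5.85, SE 0.13, adjusted p = 2.5e-25). Itgb7 (chr15:102215995-102231944, minus strand), the beta chain of gut-homing lymphocytes, had 10.4, 23.8 and 30.4 CPM in the cornea, against 0.186, 0.877 and 2.07 CPM in the TG (log2 change 4.82, SE 0.29, adjusted p = 5.0e-15). Both were higher in every cornea library. Macrophage markers summed to 13.9 to 29.2 CPM in the cornea and 109 to 146 CPM in the TG. Of these 8 markers, 7 were lower in the cornea and Cd68 was higher (log2 change 1.83, SE 0.26). Neutrophil markers summed to 2.75 to 46.2 CPM in the cornea and 2.60 to 35.8 CPM in the TG, which overlap. The 2 of these 8 markers that could be tested, S100a9 (log2 change 1.54, SE 0.38) and Ltf (log2 change 4.02, SE 0.49), were higher in the cornea. The part of these cells in the level of Itgam was not tested. Itgam overlaps Gm49368, a gene model on the same strand, and reads of these genes cannot be told apart here. Itga2b, the platelet alpha chain, ranged over 15.3 to 30.0 CPM in the cornea and 4.15 to 9.32 CPM in the TG (log2 change 1.75, SE 0.17), while the summed platelet markers were at 8.47 to 18.3 CPM in the cornea and 10.7 to 23.1 CPM in the TG, which overlap. Itga4, which binds Vcam1 and fibronectin, averaged 0.579 CPM in the cornea and 9.35 CPM in the TG (log2 change -3.64, SE 0.38), and Itga9, a receptor of tenascin and Vcam1, 0.965 CPM in the cornea and 8.59 CPM in the TG (log2 change -3.10, SE 0.35).

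The markers of the cells that these tissues hold stood beside these levels. Corneal epithelial markers summed to 66248 to 80040 CPM in the cornea and 3.53 to 67.1 CPM in the TG, Schwann cell markers to 173 to 217 CPM in the cornea and 11703 to 19894 CPM in the TG, and endothelial and pericyte markers to 13.7 to 45.1 CPM in the cornea and 144 to 244 CPM in the TG. Their part in the levels of single members was not tested. The count of 28 members called was 27 to 28 without each library in turn, 28 in B2 libraries alone and 25 in the libraries without B2. Shares of all genes called in these fits are not given here.

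Genes that work with integrins and laminins differed between the tissues in both directions. Of 4 hemidesmosome partners tested, 2 were higher and 2 lower in the cornea. Col17a1, the transmembrane collagen of hemidesmosomes, averaged 1584 CPM in the cornea and 0.61 CPM in the TG (log2 change 11.53, SE 0.21), Plec, the plectin that ties Itgb4 to keratin filaments, was higher (log2 change 0.93), and Dst (log2 change -1.10) and the tetraspanin Cd151 (log2 change -0.68) were lower. Of 13 basement membrane and dystroglycan partners tested, 6 were higher, namely Agrn, Col7a1 and the collagen chains Col4a3, Col4a4, Col4a5 and Col4a6, with log2 changes of 1.11 for Agrn to 6.09 for Col4a3. The 6 that were lower were Nid1, Nid2, Hspg2, Dag1, Bcam and Col4a1, with log2 changes of -0.55 for Dag1 to -2.60 for Nid2, and Col4a2 did not pass the test (log2 change -0.29, adjusted p = 0.0512).

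Of 25 genes of integrin activation and the adhesion plaque tested, 11 were higher and 12 lower in the cornea. The kindlins, which switch integrins on, divided by tissue. Fermt1, the epithelial kindlin, averaged 191 CPM in the cornea and 0.35 CPM in the TG (log2 change 9.07), and Fermt2, the kindlin of most other cells, 5.47 CPM in the cornea and 160 CPM in the TG (log2 change -4.79). Fermt3, the kindlin of blood cells, was higher in the cornea (log2 change 4.58, SE 0.39). Of 8 other integrin ligands tested, Fn1, Npnt, Cdh1 and Mfge8 were higher in the cornea (log2 changes of 1.56 for Cdh1 to 6.41 for Npnt) and Vtn, Spp1, Egfl7 and Vcam1 were lower (log2 changes of -1.13 for Vcam1 to -5.90 for Vtn).

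An integrin needs both of its chains, so the levels were also read for 24 known pairs of an alpha and a beta chain. Both chains reached a mean of 2 CPM for 9 pairs in CRMC pools, 11 in spleen pools, 8 in the cornea and 14 in the TG. These are means over libraries, and the chains of a pair need not be read in the same pool. In CRMC pools Itgb6 was read only in the MS-CKO pool, at 35.1 CPM, where its partner Itgav was at 0. Both the Itga6 and Itgb4 pair and the pairs of Itga3, Itga6 and Itgav with Itgb1 were among those with both chains in the cornea and in the TG. Some chains had none of their listed partners at this level. In the cornea these were Itgam, at 151 CPM with its partner Itgb2 at 0.0735 CPM, Itga2b, at 19.1 CPM with Itgb3 at 0.196 CPM, and Itgb7, at 22.3 CPM with Itga4 at 0.579 CPM and Itgae lower. In CRMC pools they were Itgam, at 35.5 CPM, and Itgax, at 61.9 CPM, with Itgb2 at 0.415 CPM. In the TG it was Itgam, at 2.85 CPM with Itgb2 at 1.18 CPM.

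**Figure D2:**
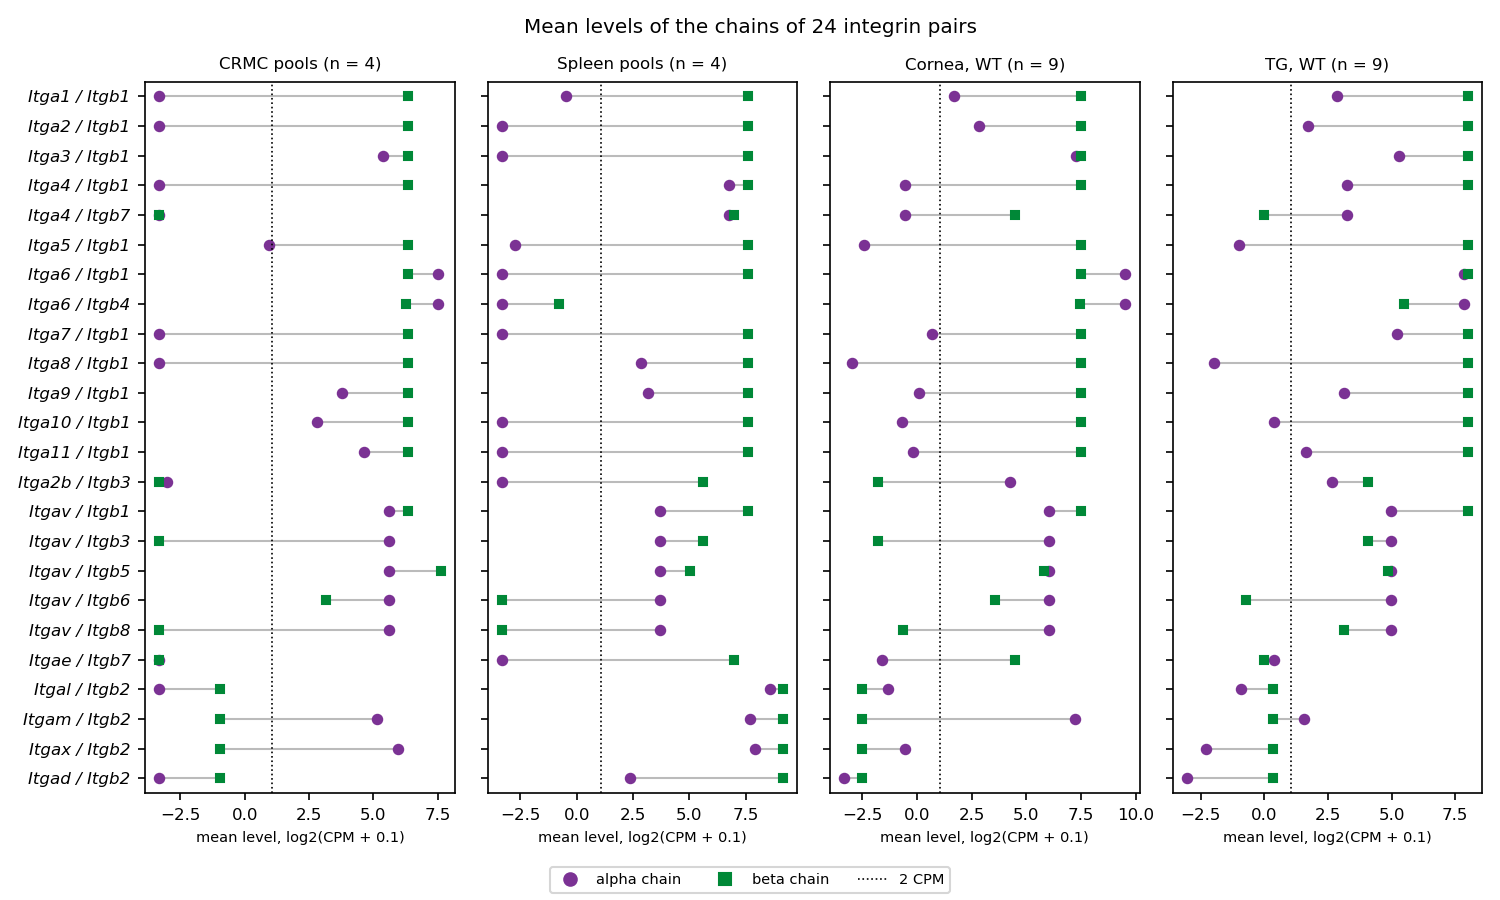
For each of 24 pairs, the mean level of the alpha chain (purple circle) and of the beta chain (green square) is plotted as log2 of CPM plus 0.1 in CRMC pools (n = 4), spleen pools (n = 4), cornea of WT mice (n = 9) and TG of WT mice (n = 9), with a dotted line at 2 CPM. In the cornea, Itgam lies at 151 CPM and Itgb2 at 0.0735 CPM, and in spleen pools Itgal, Itgam and Itgax all lie to the right of the line together with Itgb2.

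The comparisons of CKO with WT mice ask whether loss of miR-183C in sensory neurons or in myeloid cells changes these genes in the TG and in the cornea. No member passed edgeR's test in any of them. In SNS-CKO TG 23 members were tested and 0 were called, where 0.0392% of all genes tested were called, and 2 had an unadjusted p under 0.05 (6.67% of all genes). In MS-CKO TG 21 members were tested and 0 called, as was 0% of all genes, with 1 at an unadjusted p under 0.05 (2.98% of all genes). In SNS-CKO cornea it was 0 of 19 members called (0% of all genes) with 0 at an unadjusted p under 0.05 (6.24%), and in MS-CKO cornea 0 of 20 called (0% of all genes) with 1 at an unadjusted p under 0.05 (3.56%). Over these comparisons, the tests of the difference between strains and all alternatives, including DESeq2, 2603 member tests gave 0 calls, with a smallest adjusted p of 0.322. The median SE of a member's log2 change was 0.170 to 0.183, and a p that misses the threshold does not show that the levels are the same.

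**Figure D3:**
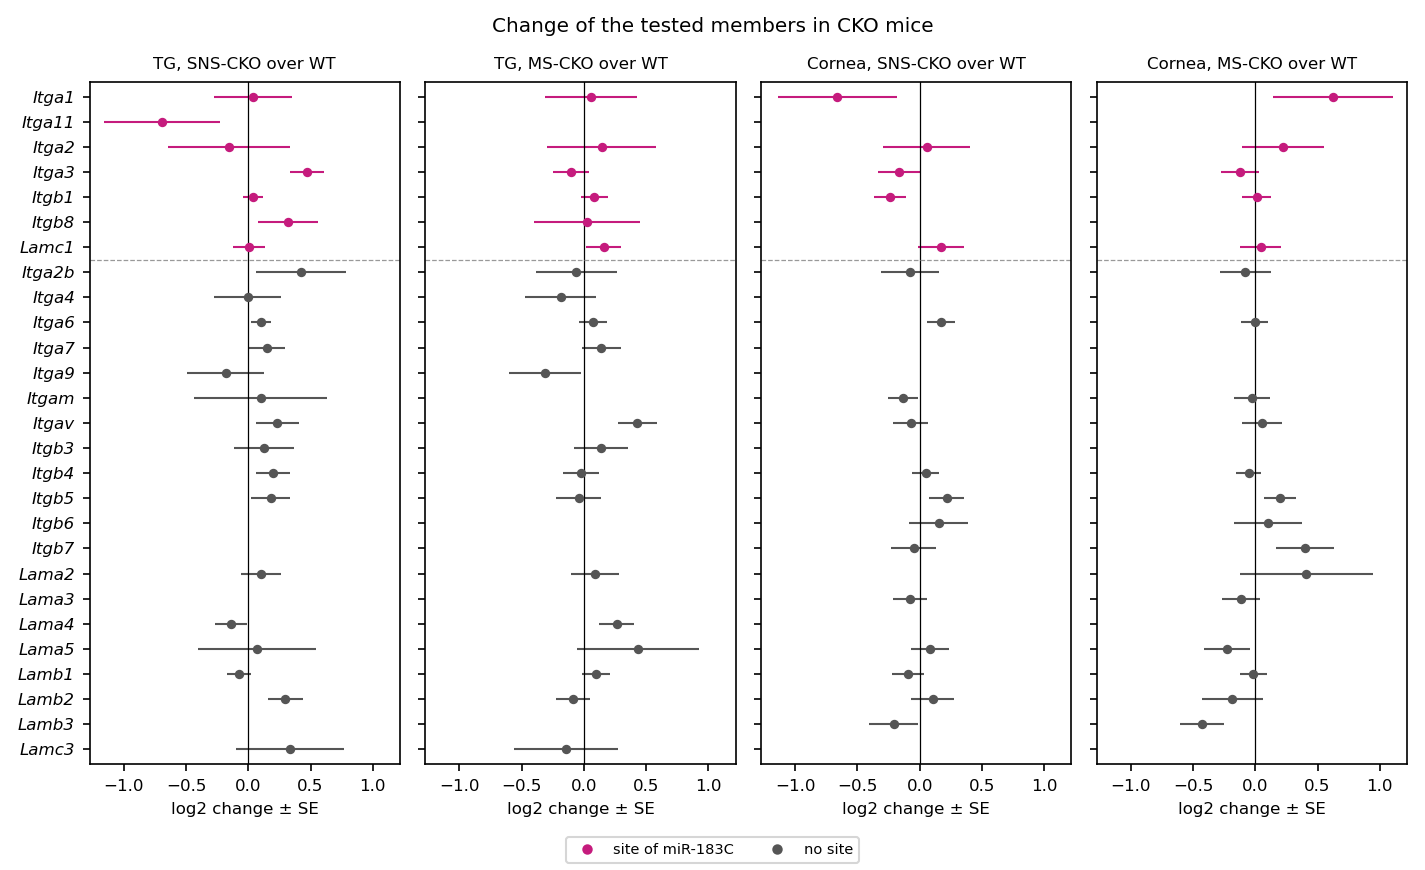
The log2 change of CKO over WT with its SE is plotted for each tested member reported here in the TG of SNS-CKO and MS-CKO mice and the cornea of SNS-CKO and MS-CKO mice, with members that have a miR-183C site in pink above the dashed line. Changes lie on both sides of 0 in each panel, and members with a site, such as Itga3 at 0.47 in SNS-CKO TG and at -0.16 in their cornea, do not lie on 1 side.

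In SNS-CKO TG 17 members lay above 0 and 6 below, with a median log2 change of 0.10. Itga3 had 59.7, 47.1 and 47.9 CPM in the 3 SNS-CKO mice, against 35.4, 35.7, 38.4 and 38.9 CPM in the 4 WT mice. All SNS-CKO libraries were above all WT libraries (log2 change 0.47, SE 0.14, unadjusted p = 0.00187), but the adjusted p was 0.428. Lamb2 had 48.1, 44.9 and 45.2 CPM in SNS-CKO mice, against 38.9, 31.8, 36.2 and 43.3 CPM in WT mice (log2 change 0.30, SE 0.14, edgeR adjusted p = 0.734). Itga11 had 2.88, 2.68 and 2.01 CPM in SNS-CKO mice, against 4.38, 4.14, 5.04 and 2.97 CPM in WT mice (log2 change -0.70, SE 0.47, edgeR adjusted p = 0.84). These 3 members did not overlap between the groups, where 7.29% of all genes tested did not overlap. The other members with a site that were named above did not separate. Itgb1 had 280, 299 and 289 CPM in SNS-CKO mice against 279, 307, 276 and 266 CPM in WT mice (log2 change 0.04), and Lamc1 had 85.9, 66.6 and 60.3 CPM in SNS-CKO mice against 75.4, 77.3, 69.2 and 60.8 CPM in WT mice (log2 change 0.00). With the strain names read the other way, this comparison holds other libraries, those without B2. There the log2 changes were -0.21 for Itga3 and -0.24 for Lamb2. The direction given for the SNS strain thus rests on the reading used. NACC stands in the column names of the SNS-strain libraries and in no others. Mirc35hg was at 49.3 to 52.6 CPM in SNS-CKO TG and 4.02 to 12.0 CPM in MS-CKO TG. The other reading would place libraries of both in the same group. Lyz2 was at 0.75 to 2.36 CPM in MS-CKO TG and 2.34 to 7.24 CPM in that of their WT controls. In SNS-CKO TG it was at 2.34 to 6.05 CPM, against 1.48 to 6.17 CPM in their WT controls. Which reading holds was not tested. Erythrocyte markers stood beside the levels of the members. They summed to 1404, 977 and 859 CPM in SNS-CKO TG, against 3370, 1144, 2402 and 1801 CPM in that of WT mice. Of these 5 markers, Hbb-bs passed the test (log2 change -1.11, SE 0.20, edgeR adjusted p = 0.0149), and Hbb-bt (-0.82), Hba-a1 (-0.995) and Alas2 (-1.02) had an unadjusted p under 0.05 only. Their part in the levels of the members was not tested.

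In MS-CKO TG 13 members lay above 0 and 8 below, with a median log2 change of 0.07. Itgav, the member with the smallest p, had 49.0, 35.7, 31.5, 43.7 and 42.2 CPM in MS-CKO mice, against 34.3, 24.9, 27.6, 25.2 and 37.3 CPM in WT mice. The groups overlapped, and the log2 change of 0.43 (SE 0.16, unadjusted p = 0.0122) had an edgeR adjusted p of 0.999. Lama4 (log2 change 0.26, unadjusted p = 0.076 in edgeR) and Lamc1 (log2 change 0.16, unadjusted p = 0.27) came next. Itga3 was at a log2 change of -0.10 and Itgb1 at 0.08. No member was without overlap between these groups, where 0.513% of all genes were. With the strain names read the other way, this comparison holds all B2 libraries in place of these. There Lama4, Lamc1 and Itga3 had the other sign, with log2 changes of -0.12, -0.02 and 0.34.

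In SNS-CKO cornea 9 members lay above 0 and 10 below, with a median log2 change of -0.05. Itgb1 had 205, 170 and 136 CPM in SNS-CKO mice, against 205, 185, 204 and 208 CPM in WT mice (log2 change -0.24, SE 0.13, edgeR adjusted p = 0.798). Itgb5 had 67.0, 58.2 and 80.7 CPM in SNS-CKO mice, against 61.9, 56.9, 61.3 and 57.9 CPM in WT mice (log2 change 0.22, unadjusted p = 0.135 in edgeR). Itga6 had 694, 822 and 829.3 CPM in SNS-CKO mice, against 683, 707, 693 and 695 CPM in WT mice (log2 change 0.17, unadjusted p = 0.136 in edgeR). For each of these chains the SNS-CKO libraries were spread more widely than the WT libraries and overlapped them. Itga3 had 155, 198 and 94.4 CPM in SNS-CKO mice, against 166, 174, 167 and 157 CPM in WT mice (log2 change -0.16), and Lamc1 was at a log2 change of 0.17. No member was without overlap, where 6.31% of all genes were.

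In MS-CKO cornea 10 members lay above 0 and 10 below, with a median log2 change of 0.00. Lamb3, the beta chain of the epithelial laminin, had 32.1, 23.4, 31.6, 36.9 and 22.7 CPM in MS-CKO mice, against 42.2, 47.9, 29.9, 42.7 and 34.3 CPM in WT mice. The groups overlapped (log2 change -0.43, SE 0.18, unadjusted p = 0.0247, edgeR adjusted p = 0.999). Itgb7 (log2 change 0.40, unadjusted p = 0.102 in edgeR) and Itgb5 (log2 change 0.20, unadjusted p = 0.148) came next. Itga3 was at a log2 change of -0.13, Itgb1 at 0.01 and Lamc1 at 0.04. No member was without overlap, where 0.634% of all genes were.

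Members with a miR-183C site did not stand on 1 side of those without in these comparisons. In SNS-CKO TG the median log2 change was 0.04 over 7 members with a site and 0.11 over 16 without. In MS-CKO TG it was 0.07 over 6 with a site and 0.07 over 15 without. In the cornea it was -0.16 over 5 with a site and 0.00 over 14 without in SNS-CKO mice, and 0.04 over 5 with and -0.02 over 15 without in MS-CKO mice.

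**Figure D4:**
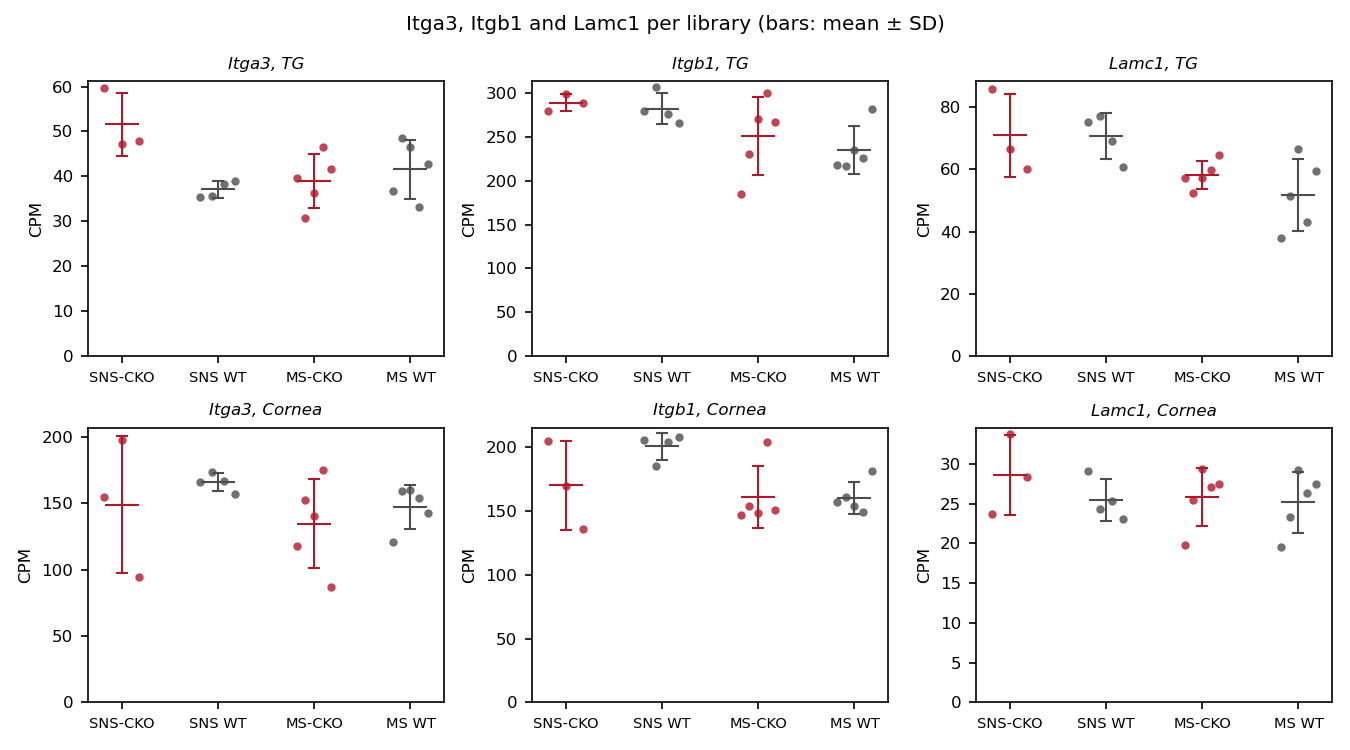
CPM of Itga3, Itgb1 and Lamc1 is plotted for each library of the TG (top row) and cornea (bottom row) in SNS-CKO (n = 3), SNS-strain WT (n = 4), MS-CKO (n = 5) and MS-strain WT mice (n = 5), with the mean and SD as bars. Of these 3 genes, only Itga3 in the TG separates SNS-CKO mice (47.1 to 59.7 CPM) from their WT controls (35.4 to 38.9 CPM), and in the cornea its SNS-CKO libraries lie on both sides of the WT libraries.

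The difference of the CKO effect between the strains was tested as an interaction. In the TG 0 of 24 members were called (0.00728% of all genes) and in the cornea 0 of 21 (0% of all genes). In edgeR at an unadjusted p under 0.05 there were 1 member in the TG (4.17% of all genes) and 0 in the cornea (2.48%). The member with the smallest p in the TG was Itga3, whose SNS effect exceeded its MS effect by 0.57 on the log2 scale (SE 0.21, unadjusted p = 0.00945, adjusted p = 0.998). The next in the TG were Lama4 (-0.41) and Lamb2 (0.38), and the first in the cornea Itga1 (-1.26), Itgb1 (-0.25) and Itgb7 (-0.44), none past the threshold.

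The genes that work with integrins and laminins gave no call in the CKO comparisons either. Those with the smallest edgeR p were Fyn, a kinase of the adhesion plaque, in SNS-CKO TG (log2 change 0.28, unadjusted p = 0.0109), Lims1, the plaque adaptor PINCH, in MS-CKO TG (log2 change 0.25, unadjusted p = 0.0497), Nid1, which links laminin to collagen IV, in SNS-CKO cornea (log2 change 0.42, unadjusted p = 0.0318) and Fermt3, the kindlin of blood cells, in MS-CKO cornea (log2 change 0.76, unadjusted p = 0.0254).

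The sorted Csf1r-EGFP+ cells were read from 1 pool per genotype, and the levels varied widely between pools. Csf1r itself was at 182 to 1029 CPM in CRMC pools and 651 to 1260 CPM in spleen pools. CRMC pools also held corneal epithelial markers at a summed 9613 to 41819 CPM, with none of 8 at 0, and keratocyte and fibroblast markers at 7467 to 65617 CPM, while spleen pools held 0 and 0 to 2.14 CPM. The 4 B cell markers that the table holds, of 6 listed, were at 0 in CRMC pools, against a sum of 1603 to 2514 CPM in spleen pools, and neutrophil markers summed to 0 to 518 CPM in CRMC pools and 18952 to 44739 CPM in spleen pools.

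Among CRMC pools, 12 members were above 0 in the KO pool and 3 in its WT pool, and 15 in the MS-CKO pool and 9 in its WT pool. In the KO-strain WT pool, which had the fewest counts and detected genes, they were Itgax, Itgb5 and Lama2. Itgb5 was the only member above 0 in all 4 CRMC pools, 5 members (Itga6, Itgb1, Lama2, Lamb2 and Lamc1) were in 3 pools, and 10 were in a single pool. Itga3 (165 CPM in the MS-CKO pool), Itgax (248 CPM in the KO-strain WT pool) and Lama5 (124 CPM in the MS-strain WT pool) were each at 0 in the other 3 pools. Among spleen pools, 16 were above 0 in the KO pool and 11 in its WT pool, 12 in the MS-CKO pool and 13 in its WT pool, and 9 were in all 4. The 16 members at 0 in all CRMC pools included Itgal, Itga4, Itgb7 and Itgb3 and the epithelial chains Lama3 and Lamb3.

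**Figure D5:**
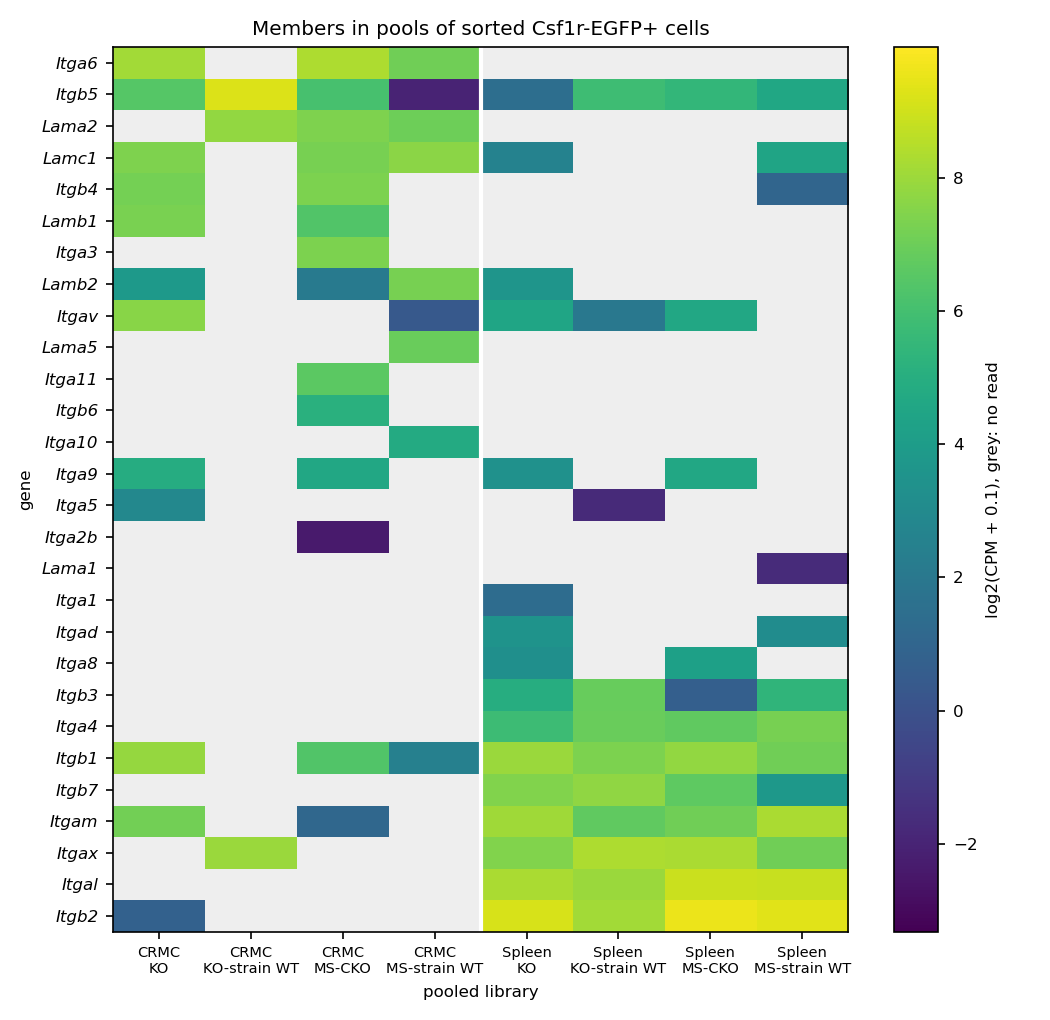
The colour of each cell gives log2 of CPM plus 0.1 of a member reported here in a pooled library, with 4 CRMC pools left of 4 spleen pools and grey where no read was counted. Itgal, Itgb2, Itga4 and Itgb7 are grey in CRMC pools and coloured in all spleen pools, apart from Itgb2 at 1.66 CPM in the KO pool of CRMCs, and laminin chains are coloured mainly in CRMC pools.

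The comparison of CRMC with spleen pools, over 4 pools of each, asks which integrins the sorted cells of the 2 sources carry. Of 12 members tested, 4 were lower and 0 higher in CRMC pools, where 18.3% of all genes were lower and 1.06% higher (19.4% called). The filter on low counts asks for reads in as many libraries as the smaller group holds, so these 4 passed it through their spleen pools, and members at 0 in all spleen pools could not pass unless they were read in all 4 CRMC pools. The filter thus fixed the direction, and nothing is read from it or from the count. All 4 belong to leukocyte integrins, and their levels are given as a description. None of them overlapped between the sources, where 28.4% of all genes did not overlap. For the same reason nothing is read from this or from their p-values. Itgal (chr7:127296260-127335138, plus strand), the LFA-1 alpha chain, had 0 CPM in all CRMC pools, against 254 to 473 CPM in spleen pools. Over the pools it was at least 3180-fold lower, against a floor of 3 counts over the group (edgeR adjusted p = 0.0105). Itgb2 (chr10:77530252-77565708, plus strand), the common beta chain of leukocyte integrins, had 1.66 CPM in the KO pool and 0 in the other CRMC pools, against 279 to 764 CPM in spleen pools. The 7 counts in CRMC pools gave a ratio of 0.00048 with a 95% exact binomial interval of 0.000193 to 0.00099 (edgeR adjusted p = 0.0105).

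Itga4, with 0 CPM in CRMC pools and 54.4 to 152 CPM in spleen pools, was at least 882.5-fold lower (edgeR adjusted p = 0.0105), and Itgb7, with 0 CPM in CRMC pools and 13.5 to 219 CPM in spleen pools, at least 869.6-fold lower (adjusted p = 0.0109). They passed the filter on low counts only through their spleen pools, so nothing is read from the direction or the p-values of these calls. Both chains form a receptor of homing lymphocytes. B cell markers were also at 0 in CRMC pools, while neutrophil markers summed to 518 CPM in the KO pool, 34.8 CPM in the MS-CKO pool and 0 in both WT pools of CRMCs, and their part was not tested. The count depended on the pools. It was 7 without the CRMC KO pool and 7 without the CRMC KO-strain WT pool, and 2 (Itgal and Itgb2) with the genotype of the pool as a block, where Itga4 and Itgb7 had an adjusted p of 0.0926. Shares of all genes called in these fits are not given here, so nothing is read from the change of the count.

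Itgam, Itgax and Itgb1 were read in both sources and overlapped. Itgam had 140 CPM in the KO pool, 2.04 CPM in the MS-CKO pool and 0 in both WT pools of CRMCs, against 104 to 313 CPM in spleen pools (edgeR adjusted p = 0.674). Itgb1 lay between 0 and 235 CPM in CRMC pools, against 138 to 247 CPM in spleen pools (adjusted p = 0.856). The summed laminin chains were at 225 to 606 CPM in CRMC pools and 0 to 21.9 CPM in spleen pools. Of these only Lamb2 and Lamc1 could be tested, and neither passed (adjusted p = 0.733 for Lamb2 and 0.603 for Lamc1). Members at 0 in all spleen pools were left out of the test by the filter. Of these, over the pools and against a floor of 3 counts over the group, Itga6 was at least 2373-fold higher, Lama2 at least 1357-fold, Itga3 at least 764-fold and Lamb1 at least 660-fold higher in CRMC pools. These bounds cover counting error only and have no test, and they sum pools that differ. That of Itga3 rests on the MS-CKO pool, and that of Lamb1 on the KO and MS-CKO pools, with 0 in both WT pools. Itga6 was at 0 in the KO-strain WT pool and Lama2 at 0 in the KO pool.

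Set against whole cornea of WT mice, 7 of 20 members tested were called in CRMC pools, 6 lower and 1 higher, where 47.7% of all genes were lower and 3.78% higher (51.4% called). Lower were Lama3, Lamb3, Itgb7, Itga2 and Itga1, each at 0 in every CRMC pool, and Itga2b, with 1 count. These 6 passed the filter on low counts through their cornea libraries, which fixed their direction, so nothing is read from the split. Lama2 was higher, with 0 CPM in the KO pool, 225 CPM in its WT pool, 166 CPM in the MS-CKO pool and 132 CPM in its WT pool, against 1.27 to 8.88 CPM in whole cornea (log2 change 4.88, SE 1.02, edgeR adjusted p = 8.6e-04). The KO pool, at 0, lay below the cornea, so that no member was higher without overlap, while 8 were lower, where 54.6% of all genes did not overlap. The keratocyte and fibroblast markers were at 7467, 12423, 57316 and 65617 CPM in these pools in the same order, against 1452 to 3514 CPM in whole cornea, and their part in the level of Lama2 was not tested. The count was 16 with no filter on low counts. The share of all genes called in that fit is not given here, so nothing is read from this change.

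With 1 pool per genotype there is no test of KO or MS-CKO against WT in the sorted cells. Members are named where both pairs differed by at least 2-fold the same way with at least 50 counts over each pair. In CRMC pools 9 members had enough counts, of which 5 were higher in both null pools and 0 lower, where 40.3% of all genes with enough counts were higher in both and 5.94% lower. Itga6 had 275 CPM in the KO pool against 0 in its WT pool, and 321 CPM in the MS-CKO pool against 138 CPM in its WT pool, a ratio of 2.32 with a 95% exact binomial interval of 2.16 to 2.50. Itgb1 had 235 CPM against 0 in the KO pair and 82.9 CPM against 5.48 CPM in the MS pair, a ratio of 15.1 (10.8 to 21.7). Itgb4 had 146 CPM in the KO pool and 164 CPM in the MS-CKO pool, Lamb1 had 156 and 81.5 CPM and Itga9 29.9 and 25.2 CPM in these pools, and all 3 were at 0 in both WT pools. Against a floor of 3 counts in the WT pool, Itgb4 was at least 110-fold higher in the KO pool and at least 360-fold higher in the MS-CKO pool. Both null pools also held more detected genes than their WT pools, with 3488 against 1650 in the KO pair and 6455 against 3380 in the MS pair. Their totals were higher too, at 4214416 against 2261266 and 10803867 against 6569553 counts. The part of these differences in the zeros of the WT pools was not tested.

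The corneal epithelial markers moved with these members, with a sum of 41819 CPM in the KO pool against 12614 CPM in its WT pool and 39601 CPM in the MS-CKO pool against 9613 CPM in its WT pool. None of the 8 markers was at 0 over the pools, and their part in the levels of Itga6, Itgb4 and Itgb1 was not tested. Of the other 4 members with enough counts, Itgb5 had 89.0 CPM in the KO pool against 623 CPM in its WT pool and 67.8 CPM in the MS-CKO pool against 0.152 CPM in its WT pool, in opposite directions. Lamb2, Lama2 and Lamc1 also differed between the pairs, as Lamc1 with 170 CPM in the KO pool against 0 in its WT pool, and 149 CPM in the MS-CKO pool against 200 CPM in its WT pool.

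In spleen pools 13 members had enough counts, of which 3 were higher and 1 lower in both null pools, where 11.9% of all genes were higher and 6.28% lower. Itga8, which binds nephronectin, had 9.79 CPM against 0 in the KO pair and 18.4 CPM against 0 in the MS pair. Itga9 had 10.4 CPM against 0 and 25.2 CPM against 0. Itgav had 22.4 CPM in the KO pool against 3.89 CPM in its WT pool, a ratio of 5.75 (3.59 to 9.70), and 25.2 CPM in the MS-CKO pool against 0. Itgb3 was lower, with 31.1 CPM in the KO pool against 118 CPM in its WT pool, a ratio of 0.263, and 1.53 CPM in the MS-CKO pool against 41.6 CPM in its WT pool, a ratio of 0.0368. Itgal, the alpha chain of highest CPM there, had ratios of 1.21 in the KO pair and 1.01 in the MS pair. These intervals and floors cover counting error only, and the reads carry no molecular identifiers.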

How the data were processed

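The members and gene lists were chosen with earlier results of these data known. Per the labels and the methods, the authors made QuantSeq 3′ mRNA FWD libraries, aligned them with STAR against mm10 and used HTSeq to count reads per gene. Versions, annotation and strand setting: not given in the sources used here. Deposited values are raw counts of 35976 rows in 54 columns, of which 42 were used, 11 were read only to compare them and 1 without a name was not used. In all, 27 gene names had become dates (at most 0.212% of a library's counts). Spleen and KO pools were taken by title.

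CPM is counts over the library total. Tests in R 4.3.3 were edgeR 4.0.16 (with limma 3.58.1), with TMM, filterByExpr, the quasi-likelihood F test within each strain and tissue, and Benjamini-Hochberg adjustment over all genes, with a threshold of 0.05. The fits of SNS-CKO TG, MS-CKO cornea and cornea against TG were also run on simulated counts. Those of sorted cells were not, and changes as small as those of the members in CKO mice were not simulated. p-values measure the spread between single-mouse libraries or between pools. Replicate numbers were not used to pair libraries in the tests, and whether a number names the same mouse in both tissues was not tested. Alternatives were DESeq2 1.42.0, RLE, no filter, each library left out, the replicate block, a batch term, all groups in 1 fit, pool genotype as a block, CKO in place of WT libraries and the other strain reading; single batches were added after seeing the data.

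Named members are those past the threshold (where more than 8 pass, the 4 of largest change each way with a mean of 2 CPM, the others by range), or the 3 of smallest p where fewer than 3 pass, with Itga3, Itgb1 and Lamc1 in every CKO comparison. Other genes of the pathway are those past the threshold or of smallest p. The single values of 1 member are not reported here, and it stays in the counts and sums over members.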

Additional observations from a re-analysis of the deposited data

Results flagged for a closer look

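Itgb1 stood out in 3 of 32 gene and group values tested for a single outlying library, where chance flags about 1 in 20. In the TG of MS-strain WT mice library 5 was at 282 CPM, against 217 to 235 CPM in the other 4. It is the only library of that group with B2 in the column name, and over all TG libraries Itgb1 had a median of 281 CPM with B2 (266 to 307 CPM) and 226 CPM without it (185 to 271 CPM). In the cornea of SNS-strain WT mice library 2 was at 185 CPM, against 204 to 208 CPM in the other 3. In the cornea of MS-CKO mice library 4 was at 204 CPM, against 147 to 154 CPM in the other 4. It is 1 of 2 B2 libraries of that group, and over all cornea libraries the median was 194.5 CPM with B2 (136 to 208 CPM) and 153 CPM without it (147 to 161 CPM). The part of the B2 libraries in these values was not tested.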

How the results depend on the processing

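Of the counts of members called under the alternatives, 160 stayed within 1.5 times the main count and 4 moved; of single members, 813 kept direction and side of the threshold, 29 reversed and 2 lost the call, and the cause was not tested. CRMC against spleen gave 2 members with pool genotype as a block and 4 to 7 without each pool, and CRMC against whole cornea 16 with no filter on low counts. Shares of all genes called under these settings are not given here. With the other reading of the strain names, log2 changes became -0.21 (Itga3) and -0.24 (Lamb2) in SNS-CKO TG, -0.12 (Lama4), -0.024 (Lamc1) and 0.34 (Itga3) in MS-CKO TG, -0.17 (Itgb1) in MS-CKO cornea, -0.55 (Itga3), 0.46 (Lama4) and -0.51 (Lamb2) in the TG interaction, and 0.97 (Itga1), 0.12 (Itgb1) and 0.23 (Itgb7) in the cornea interaction. Lamc1 in SNS-CKO TG was at -0.0066 with no filter, -0.074 with the replicate block and -0.15 to 0.10 without each library. In MS-CKO cornea Itgb1 was at -0.0353 with a batch term, -0.022 in B2 libraries alone and -0.038 in those without B2, and Lamc1 at -0.0044 in B2 libraries alone; in MS-CKO TG Itga3 was at 0.025 and Itgb1 at -0.013 in B2 libraries alone. Leaving out each library gave -0.42 to 0.091 for Itga3 in SNS-CKO cornea, and -0.23 to 0.00395 for Itga3, -0.087 to 0.060 for Itgb1 and -0.030 to 0.12 for Lamc1 in MS-CKO cornea. Deviations of same-numbered libraries from their groups had correlations of -0.084 to 0.18, and of 0.002 to 0.149 between cornea and TG. These values cannot decide whether a cornea and a TG of the same number came from the same mouse. The replicate block gave 0 members in the 6 CKO comparisons and 28 for cornea against TG. Depth limits members under 2 CPM, and 1 pool per genotype limits the sorted cells.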

Other observations

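The spread between WT libraries was read for members at higher levels, over both strains and with and without B2. Over the 15 members with a mean of at least 20 CPM in the cornea of WT mice, the coefficient of variation between the 9 libraries was 6.88% (Itgb4) to 27.2% (Itgb7), with a median of 13.4%, and over the 12 such members in the TG it was 7.43% (Itga6) to 28.1% (Lama2), with a median of 17.5%. The summed level of all members was 1822 to 2236 CPM in the cornea of CKO mice and 1941 to 2114 CPM in that of WT mice, and 1026 to 1296 CPM in the TG of CKO mice and 964 to 1212.5 CPM in that of WT mice, which overlap. Lens markers summed to 1295 CPM in cornea MS-strain WT library 1 and to 138 to 500 CPM in the other cornea libraries. Without that library the log2 change of Lamc1 in MS-CKO cornea was -0.030, against 0.043 with it, and the part of the lens markers was not tested.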
